A study of Mus musculus with 12 samples.

Results

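The genes described here are the 10 measured members of the cyclin-dependent kinase (CDK) inhibitor and retinoblastoma (Rb) families: the Cip/Kip inhibitors Cdkn1a, Cdkn1b and Cdkn1c, the Ink4 inhibitors Cdkn2a, Cdkn2b, Cdkn2c and Cdkn2d, and the pocket proteins Rb1, Rbl1 and Rbl2. They were taken by exact gene symbol from a gene table of 23358 rows, with no use of their values. RNA was sequenced from MC3T3 sc4, a subclone of a C57BL/6 mouse calvarial pre-osteoblast line, at passage 12. The cells stood for 1 or 6 days in medium with ascorbic acid and β-glycerol phosphate, which promotes bone matrix formation. They received vehicle, bone morphogenetic protein 2 (BMP2, a growth factor that drives osteoblast differentiation) at 10 or 50 ng/ml, the EZH2 inhibitor GSK126 at 5 µM, or GSK126 together with either BMP2 dose. Medium and agents were renewed once, between the 2 harvests.

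Each of the 12 conditions had 1 library, of 74301112 to 113744802 counts, so a difference between single conditions had no replicate check. Effects of day, GSK126 and BMP2 were therefore tested over the factorial design, in which libraries sharing a treatment take the place of replicates. Levels are given as CPM, the counts as a share of the library on the usual scale, adjusted for library composition; ± gives the standard error of a log2 fold change, and adjusted p-values were obtained with edgeR (quasi-likelihood F test, Benjamini-Hochberg method over 12056 genes). A gene is said to have risen or fallen at an adjusted p below 0.05. All libraries come from 1 cell line, the labels do not say whether they came from separate cultures, and in bulk RNA fewer cells of a kind and less RNA per cell cannot be told apart. The osteoblast label was set beside its markers: all 10 osteoblast lineage genes examined had enough counts for testing, with Col1a1 at 18500 to 75000 CPM. From day 1 to day 6, 8 of the 10 rose and 1 fell, beside 40.5% and 37.5% of all genes. Bglap was at 0 to 0.221 CPM on day 1 and Alpl at 0.691 to 4.65. On day 6 Bglap was at 4.56 to 547 CPM and Alpl at 12.5 to 59.3. Spp1 did not share this order: it was at 518 to 810 CPM on day 1. On day 6 it was at 272 to 666 CPM without GSK126 and at 528 to 8110 CPM with it. Of the markers of other cell types, Ptprc (leukocytes) had at most 4 read pairs in any library, Cdh5 (endothelium) 2, Adipoq (adipocytes) 3 and Myod1 (muscle) 3, while less specific genes of the same lists were measured: Cd14 at 2.9 to 5.76 CPM, Csf1r at 0.467 to 1.66, Pparg at 0.157 to 3.1 and Des at 1.84 to 10.6. The summed levels were 4 to 7.88 CPM for the leukocyte list, 0.0199 to 0.284 for the endothelial, 0.43 to 3.59 for the adipocyte and 3.08 to 10.9 for the muscle list. Des, the muscle intermediate filament gene, rose on day 6 with GSK126 (0.65 ± 0.091) and with BMP2 (0.94 ± 0.1); the part of these genes in the results was not tested. Rn45s, the precursor of ribosomal RNA, held 8.96% to 11.71% of a library's counts at the first harvest and 13.1% to 21.66% at the second.

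Cells leave the resting state when D-type cyclins with CDK4 or CDK6, and later cyclin E with CDK2, phosphorylate the pocket proteins Rb, p107 (Rbl1) and p130 (Rbl2). Unphosphorylated pocket proteins hold E2F transcription factors and keep genes of DNA replication low. Ink4 proteins bind CDK4 and CDK6, whereas the Cip/Kip proteins p21 (Cdkn1a), p27 (Cdkn1b) and p57 (Cdkn1c) bind a wider range of cyclin-CDK complexes. EZH2 is the methyltransferase of Polycomb repressive complex 2. The Ink4 locus, which holds Cdkn2a and Cdkn2b, is a known Polycomb target, which makes the response of these genes to an EZH2 inhibitor a question of interest.

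The promoter sequences below show the start regions of the genes with E2F letters and of the genes with the largest BMP2 and day differences. RefSeq start regions (GRCm38.p6, 250 bases before to 50 after each start, 32851 promoters) matched 8 of the 10 genes with 11 starts; Cdkn1c and Rb1 had no entry. Printed are the 250 bases before the start, 5′ to 3′ on the gene's strand. Capitals mark E2F letters (TTTCCCGC, TTTGGCGC or TTTCGCGC) in Rbl1 and Cdkn2a, and the GC box GGGCGG in Cdkn2c and Cdkn1a, each searched on both strands.
Rbl1, minus strand, chr2:157204535-157204784: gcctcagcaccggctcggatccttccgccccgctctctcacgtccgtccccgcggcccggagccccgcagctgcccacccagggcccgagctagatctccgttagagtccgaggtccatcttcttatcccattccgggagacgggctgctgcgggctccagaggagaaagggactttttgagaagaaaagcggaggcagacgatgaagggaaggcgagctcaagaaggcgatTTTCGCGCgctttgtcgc
Cdkn2a, upstream start, minus strand, chr4:89294620-89294869: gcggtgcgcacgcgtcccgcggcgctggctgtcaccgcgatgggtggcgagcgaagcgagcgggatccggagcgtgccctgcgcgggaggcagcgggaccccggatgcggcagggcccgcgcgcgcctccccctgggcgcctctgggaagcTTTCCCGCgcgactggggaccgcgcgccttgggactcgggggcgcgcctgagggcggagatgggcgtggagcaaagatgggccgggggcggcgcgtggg
Cdkn2c, upstream start, minus strand, chr4:109666757-109667006: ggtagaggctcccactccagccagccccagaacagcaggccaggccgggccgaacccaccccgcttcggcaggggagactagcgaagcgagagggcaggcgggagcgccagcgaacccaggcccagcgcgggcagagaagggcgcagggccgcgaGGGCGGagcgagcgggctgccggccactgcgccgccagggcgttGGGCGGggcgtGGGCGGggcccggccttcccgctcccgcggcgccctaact
Cdkn1a, downstream start, plus strand, chr17:29093519-29093768: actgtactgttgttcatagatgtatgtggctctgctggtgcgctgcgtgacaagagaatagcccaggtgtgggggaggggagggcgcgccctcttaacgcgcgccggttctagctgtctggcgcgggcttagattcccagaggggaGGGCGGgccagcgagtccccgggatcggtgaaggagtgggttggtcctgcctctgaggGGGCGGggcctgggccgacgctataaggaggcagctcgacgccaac

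Rbl1 held its E2F letters 18 bases before the start (position -18), and the upstream Cdkn2a start, which opens the Arf transcript, held them at -99. The other 9 start regions of these genes, each taken with the 50 bases after the start, held none, and 1.84% of all RefSeq start regions held at least 1 match. GC boxes were found in start regions of all 8 genes, and 35.7% of all start regions held a match; within the printed bases they stood at -104 and -46 in Cdkn1a and at -95, -51 and -40 in Cdkn2c. The letters GGCGCC, to which BMP-activated SMADs can bind and which can overlap the E2F letters TTTGGCGC, were found in 4 of the 8 genes: at -12 in Cdkn2c, at -104 and -45 in Cdkn1b, at -115 in the upstream Cdkn2a start and at 20 after the start in Cdkn2d (11.9% of all start regions). A match is a string of letters, not a measured binding site.

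In the deposited table (mm10), Cdkn1a lies at chromosome 17, 29090986 to 29100722, Cdkn1b at chromosome 6, 134920401 to 134925525, and Cdkn1c at chromosome 7, 143458339 to 143461050. The Ink4 genes Cdkn2a (89274473 to 89294619) and Cdkn2b (89306289 to 89311032) are neighbours on chromosome 4, Cdkn2c lies elsewhere on that chromosome, and Cdkn2d lies at chromosome 9, 21288464 to 21291209. Rb1 lies at chromosome 14, 73195502 to 73325791, Rbl1 at chromosome 2, 157145894 to 157204534, and Rbl2 at chromosome 8, 91070094 to 91123844. Cdkn2c has a further start downstream, and the gene model of the deposited table (chromosome 4, 109660876 to 109665372) begins there, so reads of the upstream first exon lie outside its counts.

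Levels between genes were compared per gene length, with the authors' RPKM, in which reads are divided by the length of the gene model and the library total. Cdkn1a had the highest median over the 12 libraries at 82.7 RPKM, with a range of 46.5 to 197. Cdkn2c had a median of 21.4 RPKM (6.64 to 35.2) and Cdkn1b one of 20.25 (16.2 to 30.5), so the ranges of these neighbours in the order overlapped. Cdkn2d followed at 12.8 RPKM, then the pocket proteins Rbl1 at 7.645, Rbl2 at 6.345 and Rb1 at 3.36, with the range of Rbl1 (2.6 to 11.7) spanning that of Rbl2 (5.7 to 7.43). Cdkn1c, Cdkn2a and Cdkn2b were at or near 0. Of the 10 genes, 7 passed the filter of at least 1 CPM in at least 2 libraries, and each of these 7 was above it in all 12 libraries, the lowest value being 8.91 CPM for Cdkn2d. That value rested on 380 read pairs, with a 95% Poisson interval of 8.04 to 9.85 CPM that covers counting error only.

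The makeup of the transcripts separated the days in the pocket protein family alone. There Rbl1 made up 53% to 54.5% of the summed RPKM in the day 1 libraries and 20.2% to 32.4% in the day 6 libraries, and Rb1 14.5% to 15.8% and 22.9% to 32.7%. Cdkn1a made up 64.9% to 77.8% of the summed Cip/Kip RPKM on day 1 and 77.1% to 92.2% on day 6, so the days overlapped, with the vehicle library lowest on each day. In the Ink4 family Cdkn2c supplied 56.5% to 67% on day 1 and 47.6% to 74.7% on day 6, the remainder being Cdkn2d. On both days the vehicle library had the highest Cdkn2c share, and on day 6 the library with 50 ng/ml BMP2 alone had the lowest.

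**Figure D1:**
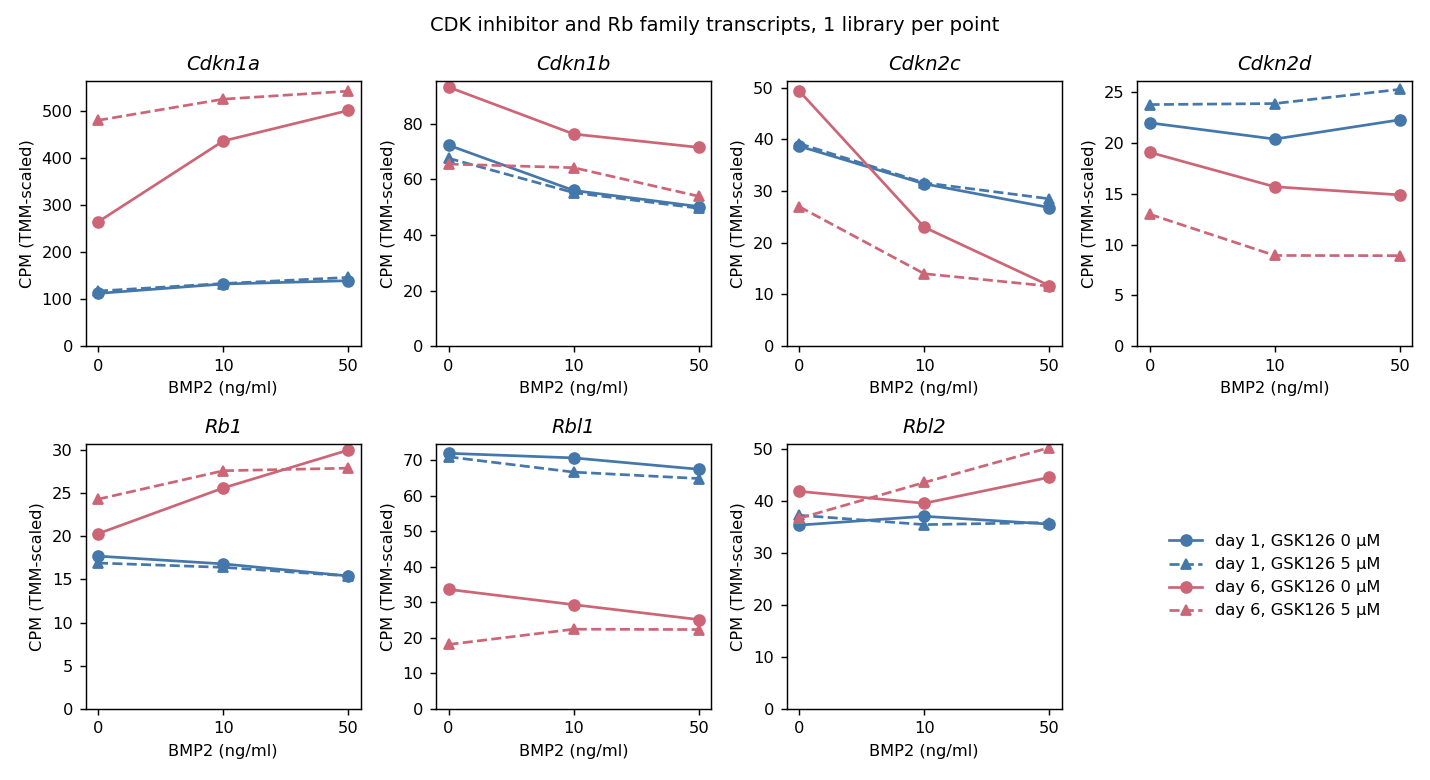
CPM (vertical axes, from 0, scaled for library composition) of the 7 expressed genes against BMP2 dose in ng/ml, 1 library per point. Blue is day 1, red is day 6, and triangles with broken lines are 5 µM GSK126. On day 1 the lines with and without GSK126 lie close together, whereas on day 6 they separate for Cdkn1b, Cdkn2d and Rbl1 at every dose, and Cdkn2c falls from 49.4 to 11.7 CPM with rising BMP2.

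Between day 1 and day 6, 4 of the 7 tested genes rose and 3 fell, over matched treatments. All genes showed much change with time: 78% of those tested were called, 40.5% as higher and 37.5% as lower, so the count for these genes lies close to what most genes did. Cdkn1a rose most, by 1.79 ± 0.094 (3.47-fold, adjusted p = 3.2e-06), from 112 to 146 CPM on day 1 to 264 to 542 CPM on day 6. Rb1 rose by 0.65 ± 0.051 (adjusted p = 2.2e-05), and its 6 day 6 libraries (20.3 to 30.0 CPM) all lay above its 6 day 1 libraries (15.4 to 17.7). Rbl1 fell by 1.47 ± 0.086 on the log2 scale (adjusted p = 5.3e-06), from 64.8 to 71.9 CPM to 18.1 to 33.6. Cdkn2d fell by 0.83 ± 0.044 (adjusted p = 3.3e-06) and its days did not overlap either. Cdkn2c fell by 0.70 ± 0.1 (adjusted p = 0.00054), but the vehicle library of day 6 was the highest of all 12 for this gene. Cdkn1b rose by 0.27 ± 0.04 and Rbl2 by 0.24 ± 0.054, with days that overlapped. Under library size scaling the median of all genes shifted by -0.209 in this comparison, and the Cdkn1b difference was 0.061 (adjusted p = 0.28) and that of Rbl2 was 0.031 (adjusted p = 0.7), so neither was called.

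On day 6 BMP2 raised Cdkn1a and lowered Cdkn1b, and GSK126 lowered Cdkn1b. Cdkn1a, an inhibitor that p53 and several stress and differentiation pathways induce, measured 264, 436 and 501 CPM at 0, 10 and 50 ng/ml BMP2 without GSK126, and 480, 525 and 542 CPM with it. The vehicle library stood low, and the other 5 lay between 436 and 542 CPM, with GSK126 alone close to 50 ng/ml BMP2 alone. The matched log2 differences for GSK126 were 0.86, 0.27 and 0.11 from the lowest to the highest BMP2 dose. Over the 3 doses the GSK126 difference on day 6 was 0.41 ± 0.13 and missed the threshold (adjusted p = 0.053), though it passed under 4 of the alternatives, among them DESeq2 (adjusted p = 0.0063). BMP2 raised Cdkn1a on day 6 by 0.48 ± 0.14 (adjusted p = 0.043). With library size scaling this was 0.334 (adjusted p = 0.059). Without the vehicle library the BMP2 value was 0.155 (adjusted p = 0.11), and without the library of GSK126 alone it was 0.825 (adjusted p = 0.00038); leaving out 9 other libraries, one at a time, also ended the call (each day 1 library, both day 6 libraries with 10 ng/ml BMP2 and the one with 50 ng/ml alone). The GSK126 value passed the threshold at 0.196 without the vehicle library and at 0.192 without that of GSK126 alone (adjusted p = 0.022 and 0.025), and at 0.566 and 0.567 without either library with 50 ng/ml BMP2 (adjusted p = 0.017 for each). The interaction of both agents on day 6 was -0.68 ± 0.16 (unadjusted p = 0.0047, adjusted p = 0.34), while DESeq2 gave an adjusted p of 0.027.

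On day 1 Cdkn1a measured 112, 132 and 139 CPM without GSK126 and 117, 133 and 146 CPM with it. The GSK126 difference was 0.05 ± 0.13 and the BMP2 difference 0.26 ± 0.14 (adjusted p = 0.35), higher in 4 of 4 matched pairs for BMP2. The fit to the day 1 libraries alone gave the BMP2 difference an adjusted p of 6e-06.

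Cdkn1b, which encodes p27, fell with each agent. It measured 93.2, 76.3 and 71.5 CPM on day 6 at 0, 10 and 50 ng/ml BMP2, and 65.5, 64.2 and 53.9 CPM with GSK126 added. The 3 GSK126 libraries were all below the 3 others. GSK126 lowered it on day 6 by 0.39 ± 0.056 (log2 fold change -0.39, adjusted p = 0.0034), lower in 3 of 3 matched pairs. With the day 6 libraries fitted alone the GSK126 value was -0.386 and was not called (adjusted p = 0.057). BMP2 lowered Cdkn1b on day 6 as well, with a log2 fold change of -0.25 ± 0.059 (adjusted p = 0.021), lower in 4 of 4 pairs. With library size scaling this was -0.393 (adjusted p = 0.0066). Without the day 6 vehicle library it was -0.152 (adjusted p = 0.13), and without any 1 day 1 library the adjusted p was 0.05 to 0.052. The BMP2 value was -0.245 with day 6 fitted alone (adjusted p = 0.15). It was -0.247 with limma-voom and a weight per day (adjusted p = 0.058).

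Cdkn1b was also the only one of these genes to pass the test for BMP2 on day 1, where 3.66% of all genes were called. Its day 1 values were 72.3, 56.0 and 50.2 CPM without GSK126 and 67.6, 55.2 and 49.6 CPM with it, a fall at each dose step in both series. The log2 fold change was -0.41 ± 0.059 (adjusted p = 0.017), and the call was lost when any 1 of the 6 day 1 libraries was left out (-0.369 to -0.448, adjusted p = 0.097 to 0.39). Calls over all genes went the same way, from 441 to between 1 and 66 without any 1 day 1 library, and to 1399 to 1487 without a day 6 library with 0 or 50 ng/ml BMP2. GSK126 left no difference past the threshold in this gene on day 1, at -0.04 ± 0.056 (adjusted p = 0.92). The change in its GSK126 effect between the days was -0.34 ± 0.079 (adjusted p = 0.039), which was not called with library size scaling (adjusted p = 0.085), without a low count filter (0.054) or with any 1 day 1 library left out (0.13 to 0.17).

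The third Cip/Kip gene, Cdkn1c, encodes p57 and is an imprinted Polycomb target. It had no read pair in any of the 6 day 1 libraries, where 3 pairs would correspond to 0.0486 to 0.0746 CPM. On day 6 it had 2, 1 and 0 pairs without GSK126 and 6, 3 and 6 pairs with GSK126 at 0, 10 and 50 ng/ml BMP2. The sums of 15 and 3 pairs gave a ratio per sequenced pair of 4.33 (95% interval 1.22 to 23.3, exact binomial, counting error only, no test over libraries). These 18 pairs stood among 558734683 in all libraries, so Cdkn1c RNA was close to undetected in every condition, and reads of the antisense gene Gm44732 that overlaps it could not be told apart, since the strand setting of the counting is not given. Of 10 genes listed as its neighbours 6 were tested. On day 6 GSK126 raised H19 by 1.98 ± 0.23 (adjusted p = 0.0015) and Igf2 by 1.5 ± 0.2 (adjusted p = 0.0025), and lowered Cd81 (-0.28 ± 0.061, adjusted p = 0.015). BMP2 moved H19 the other way (-3.5 ± 0.23, adjusted p = 0.00017), as it did Igf2 (-1.43 ± 0.2, adjusted p = 0.0029), and Cd81 fell again. With 50 ng/ml BMP2 on day 6, H19 was near the floor, at 0.154 CPM without GSK126 and 0.305 CPM with it.

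**Figure D2:**
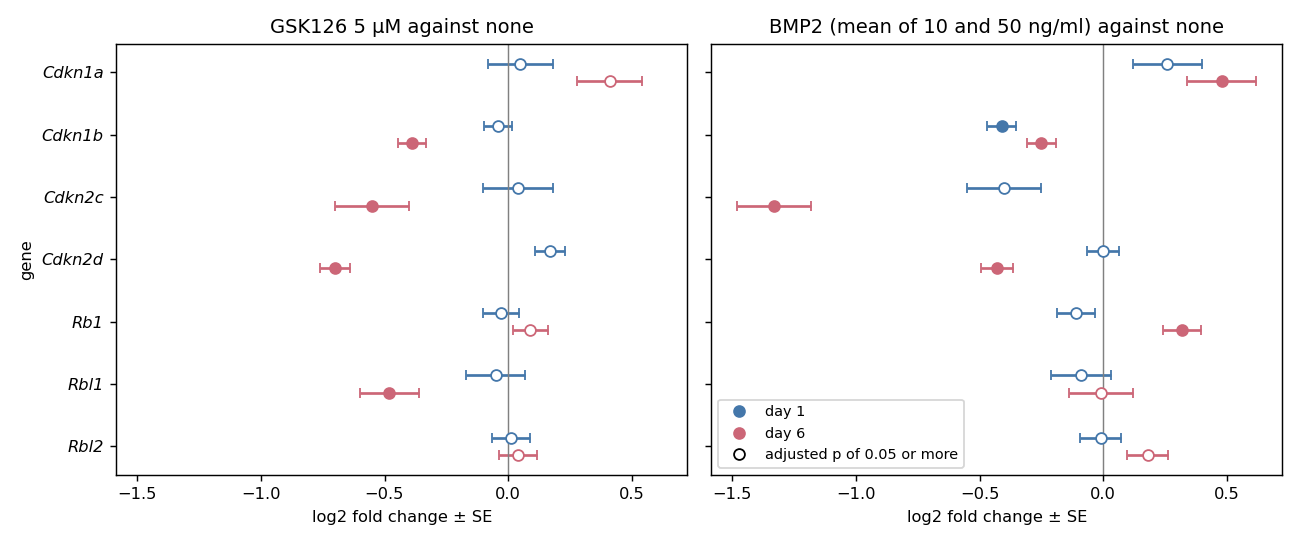
Log2 fold changes with standard errors (horizontal axes) of the 7 tested genes for 5 µM GSK126 against none (left) and for BMP2, as the mean of 10 and 50 ng/ml, against none (right). Blue is day 1, red is day 6, and filled points have an adjusted p below 0.05. The day 6 points for Cdkn1b, Cdkn2c and Cdkn2d lie below 0 for both agents, and the Cdkn1a points lie above 0.

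Among all genes on day 6, GSK126 changed 28.3% of those tested (14.3% higher, 14% lower). Of the 7 genes here, 4 fell and 0 rose: Cdkn1b, Cdkn2c, Cdkn2d and Rbl1. The median log2 fold change of the 7 was -0.39, beside -0.002 over all genes tested. On day 1 GSK126 changed 0 of the 7 and 0% of all genes by edgeR, with 755 genes at an unadjusted p below 0.05 and 6 genes by DESeq2. BMP2 on day 6 changed 28.7% of all genes (13.3% higher, 15.5% lower), and of the 7 here 2 rose (Cdkn1a, Rb1) and 3 fell (Cdkn1b, Cdkn2c, Cdkn2d). These tests share the spread of both days: with the day 6 libraries fitted alone, 1 of the 7 was called for GSK126 (Cdkn2d) and 1 for BMP2 (Cdkn2c), in 2 residual degrees of freedom, and the calls over all genes went from 3415 to 956 and from 3463 to 1038.

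The 2 Ink4 genes that were expressed, Cdkn2c (p18) and Cdkn2d (p19), were both lower on day 6 with either agent. Cdkn2c gave the steepest dose series of the family: 49.4, 23.0 and 11.7 CPM on day 6 at 0, 10 and 50 ng/ml BMP2 without GSK126, and 27, 14 and 11.6 CPM with it. The series began lower with GSK126 and met the other at the highest dose. The BMP2 log2 fold change on day 6 was -1.33 ± 0.15 (adjusted p = 0.0012), lower in 4 of 4 matched pairs, and no alternative or left-out library ended this call.

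On day 1 Cdkn2c measured 38.7, 31.4 and 26.8 CPM without GSK126 and 39.2, 31.6 and 28.5 CPM with it. The BMP2 difference there was -0.40 ± 0.15 (adjusted p = 0.21; 2.9e-06 in the fit to day 1 alone). Its BMP2 effect was stronger on day 6 by a log2 value of -0.93 ± 0.22 (adjusted p = 0.044), a call that each day 1 library and 3 of the day 6 libraries ended when left out. BMP2 day differences were called in 2 of the 7 genes and in 9.14% of all genes (1102, but 104 to 353 without any 1 day 1 library and 1806 to 2505 without a day 6 library with 0 or 50 ng/ml BMP2). GSK126 lowered Cdkn2c on day 6 by -0.55 ± 0.15 on the log2 scale (adjusted p = 0.033). The matched differences were -0.87, -0.71 and -0.01 by rising dose, so the third pair did not share in the fall, and 10 of the 12 libraries, left out singly, ended the call (adjusted p up to 0.17). Library size scaling ended this call as well (-0.509, adjusted p = 0.072).

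Cdkn2d showed the most even GSK126 effect. On day 6 it measured 19.1, 15.7 and 14.9 CPM at 0, 10 and 50 ng/ml BMP2 and 13.0, 8.93 and 8.91 CPM with GSK126, and all GSK126 libraries lay below all others. The log2 fold change was -0.70 ± 0.062 (adjusted p = 0.00049), with matched differences of -0.56, -0.81 and -0.74; it stayed past the threshold under every alternative and with each library left out. BMP2 lowered Cdkn2d on day 6 by -0.43 ± 0.065 on the log2 scale (adjusted p = 0.0037).

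On day 1 the order of the GSK126 groups was the reverse: 22, 20.4 and 22.3 CPM without and 23.8, 23.9 and 25.3 CPM with the inhibitor. That difference of 0.17 ± 0.06 was not called (adjusted p = 0.79), except with the day 1 libraries fitted alone (adjusted p = 0.016) or with a weight per day (0.036). The change of the GSK126 effect between the days was -0.87 ± 0.087 (adjusted p = 0.0019), which no alternative or left-out library ended. Day differences for GSK126 were called in 2 of the 7 genes (Cdkn1b and Cdkn2d) and in 10.5% of all genes (1261, but 342 to 398 without any 1 day 1 library, 694 or 700 without a day 6 library with 10 ng/ml BMP2, and 2156 to 2622 without any other day 6 library). The BMP2 effect on Cdkn2d also differed between the days (-0.43 ± 0.092, adjusted p = 0.033), a call that any day 1 library, or the day 6 library with 10 ng/ml BMP2 and GSK126, ended when left out (adjusted p = 0.074 to 0.23). With limma-voom and a weight per day it was -0.422 (adjusted p = 0.057).

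Cdkn2a, which encodes p16 and Arf, and Cdkn2b, which encodes p15, had almost no reads at this depth. Neither had a read pair in 11 of the 12 libraries. The day 6 library with 50 ng/ml BMP2 and GSK126 held 3 pairs of Cdkn2a and 2 of Cdkn2b, at or below the 3-pair floor of 0.0704 CPM for that library, so no fold is given. The table counts p16 and Arf as 1 gene. Expression of either gene above the floor was thus not detectable at this depth, with or without the EZH2 inhibitor.

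The lack of reads reached past the Ink4 genes. In the same deposited table (mm10, chromosome 4), Mtap (89137370 to 89181090), the neighbouring methionine salvage gene, had 1 pair in the highest library, and Dmrta1 (89688198 to 89694766) on the other side had 1 to 6. The microRNA gene Mir31 and the non-coding gene Gm12603, before Mtap, had 44 to 148 and 25 to 122 pairs. The nearest gene before the locus with at least 100 pairs in every library was Klhl9 (88718292 to 88722508), at 3287 to 5771 pairs, and the nearest after it was 5830433M19Rik, so the sparse interval spanned 5.78 Mb and 33 rows of the table, 25 with at most 3 pairs in any library. Its rows include interferon genes and a neuronal gene (Elavl2). The window and these genes other than Mtap and Dmrta1 were chosen after their values were seen. Chromatin marks and DNA copy number at the locus were not analysed here. Lack of transcription and loss of this DNA from the line cannot be told apart by RNA counts. Whether GSK126 can act on Cdkn2a and Cdkn2b in these cells was therefore not tested.

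**Figure D3:**
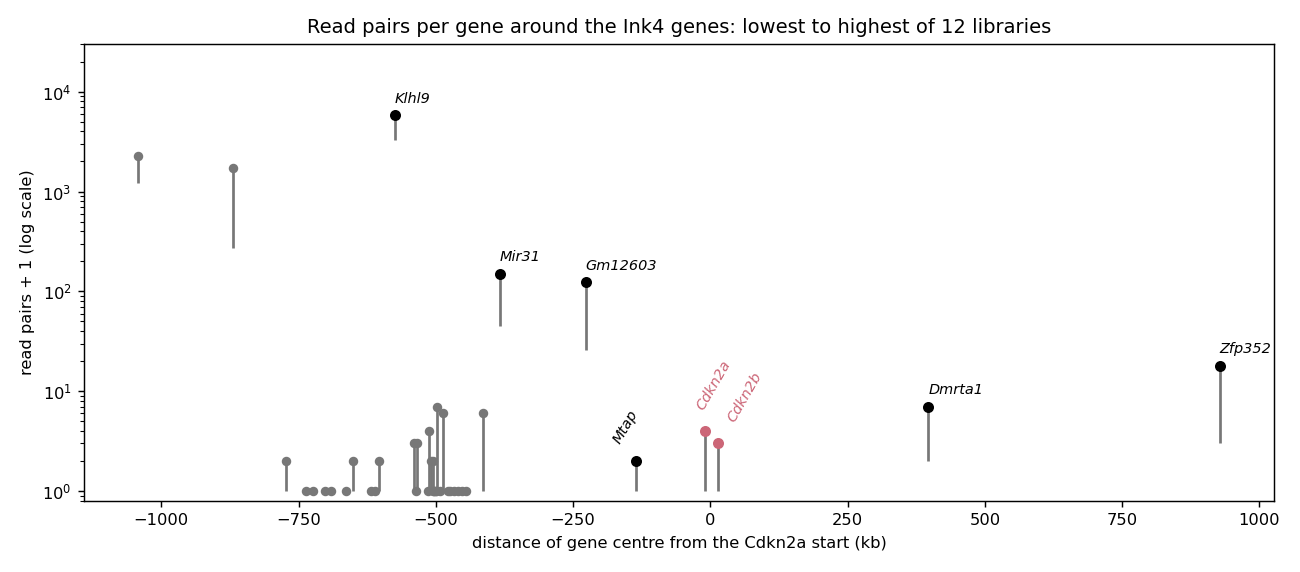
Read pairs plus 1 per gene (vertical axis, log scale) against the distance of each gene's centre from the Cdkn2a start in kb (horizontal axis), for the 42 table rows within 1 Mb of the Ink4 genes. Lines run from the lowest to the highest of the 12 libraries and dots mark the highest. Cdkn2a, Cdkn2b and Mtap lie at or below 3 pairs while Klhl9 reaches 5771.

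Of the pocket proteins, Rbl1 (p107), itself a known E2F target, was the one with a called GSK126 effect. On day 6 it measured 33.6, 29.3 and 25.1 CPM at 0, 10 and 50 ng/ml BMP2 and 18.1, 22.4 and 22.3 CPM with GSK126. GSK126 libraries were all below the others, and BMP2 went with lower levels without the inhibitor and with higher levels beside it. The GSK126 log2 fold change was -0.48 ± 0.12 (adjusted p = 0.026), with matched differences of -0.89, -0.39 and -0.17. It was -0.276 without the day 6 vehicle library and -0.28 without that of GSK126 alone (adjusted p = 0.016 and 0.014). Leaving out any day 1 library or either library with 10 ng/ml BMP2 on day 6 ended the call (adjusted p up to 0.083). Library size scaling ended it as well (-0.445, adjusted p = 0.063). Over both GSK126 levels the BMP2 difference on day 6 was -0.01 ± 0.13 (adjusted p = 0.95). The interaction of the agents was 0.61 ± 0.15 (unadjusted p = 0.0048, adjusted p = 0.34). For the interaction 0 of the 7 genes and 0% of all genes were called by edgeR, with 1125 genes at an unadjusted p below 0.05 and 190 called by DESeq2.

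Rb1, the retinoblastoma protein gene, measured 20.3, 25.6 and 30.0 CPM on day 6 at 0, 10 and 50 ng/ml BMP2 and 24.3, 27.6 and 27.9 CPM with GSK126. BMP2 raised it by 0.32 ± 0.077 (adjusted p = 0.022), higher in 4 of 4 matched pairs, and without the day 6 vehicle library by 0.192 (adjusted p = 0.13); 6 other libraries, left out singly, also ended this call (adjusted p = 0.05 to 0.076). With library size scaling, which moved the median of all genes by -0.144 for BMP2 on day 6, the Rb1 value was 0.172 (adjusted p = 0.068). On day 1 the values lay between 15.4 and 17.7 CPM and no effect was called. The GSK126 difference on day 6 was 0.09 ± 0.072 (adjusted p = 0.4).

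Rbl2 (p130), the pocket protein typical of resting cells, measured 41.8, 39.5 and 44.5 CPM on day 6 without GSK126 and 36.6, 43.5 and 50.2 CPM with it. No effect of either agent was called on either day, with 0.04 ± 0.077 for GSK126 (adjusted p = 0.72) and 0.18 ± 0.082 for BMP2 (adjusted p = 0.16) on day 6. Without the day 6 vehicle library the BMP2 value was 0.355 and was called (adjusted p = 0.0099), and without the library of GSK126 alone it was 0.003 (adjusted p = 0.97). Exons of Rb1 overlap those of Lpar6 and Rcbtb2, and those of Rbl2 overlap Aktip, all on the opposite strand in GENCODE vM21, so shared reads may be split or dropped. Lpar6 and Rcbtb2 fell from day 1 to day 6 (-0.64 ± 0.09 and -0.22 ± 0.041) while Rb1 rose, and Aktip rose by 0.23 ± 0.065.

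The genes that pocket proteins and CDKs act on were described from lists. Of 20 E2F target genes of DNA replication, all 20 fell from day 1 to day 6 (median -1.73, beside 0.03 over all genes tested), 15 fell with GSK126 on day 6 and 8 fell with BMP2 on day 6, and none rose in these comparisons; of all genes 37.5%, 14% and 15.5% fell. Tk1, thymidine kinase, fell with GSK126 (-0.97 ± 0.084, adjusted p = 0.00043) and with BMP2 (-0.58 ± 0.086, adjusted p = 0.0036). Rrm2, a subunit of ribonucleotide reductase, did so too, with -0.73 ± 0.053 and -0.25 ± 0.056. All 7 of cyclins E, A and B with Cdk1 and Cdk2 fell with GSK126 on day 6, among them Ccnb1 (-1.13 ± 0.053) and Ccna2 (-1.07 ± 0.041), and 6 of 7 fell with BMP2, the exception being Ccne2 (0.12 ± 0.057). On day 1 GSK126 changed none of these 27 genes and BMP2 changed 1, beside 0% and 3.66% of all genes. That gene was Rrm2 (0.28 ± 0.056, adjusted p = 0.044).

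In the E2F, DP and DREAM list, 7 of 16 genes fell with GSK126 on day 6 and 6 fell with BMP2, and none rose. Of all genes 14% and 15.5% fell. E2f7 and E2f8, repressive E2Fs, fell with GSK126 by -0.91 ± 0.086 and -0.89 ± 0.063, and E2f1, an activator, by -0.38 ± 0.061. Of Ccnd1, Ccnd2, Ccnd3, Cdk4 and Cdk6, the D cyclins and the kinases that Ink4 proteins bind, 1 of 5 was called for each agent on day 6, beside 28.3% and 28.7% of all genes. This was Cdk6, with -0.26 ± 0.064 for GSK126 (adjusted p = 0.026) and -0.27 ± 0.068 for BMP2 (adjusted p = 0.024).

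**Figure D4:**
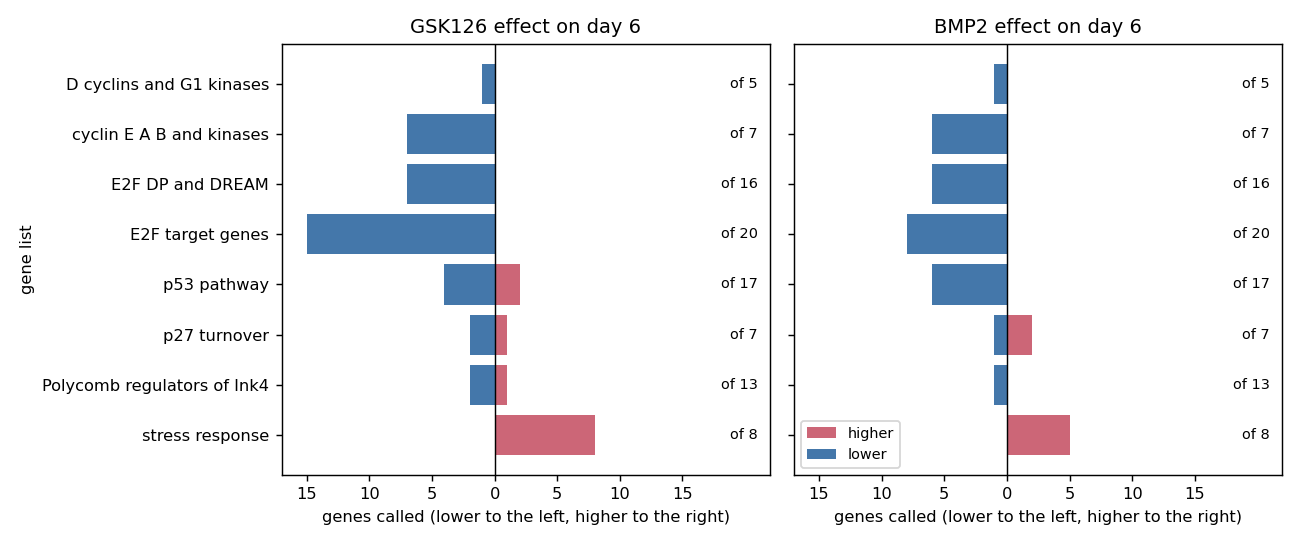
Number of genes called (horizontal axis; lower to the left in blue, higher to the right in red) in 8 gene lists for GSK126 (left) and BMP2 (right) on day 6, with the number tested at the right edge of each panel. E2F target genes have 15 of 20 lower with GSK126 and 8 of 20 lower with BMP2, and the stress response list has 8 of 8 and 5 of 8 higher.

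The p53 pathway, which induces Cdkn1a, was mixed. Of 17 tested members other than Cdkn1a, 13 rose and 1 fell (Trp53 itself, -0.47 ± 0.038) from day 1 to day 6, beside 40.5% and 37.5% of all genes. With GSK126 on day 6, 2 rose and 4 fell, beside 14.3% higher and 14% lower among all genes. With BMP2 on day 6, 0 rose and 6 fell, beside 13.3% higher and 15.5% lower. Gadd45a (1.68 ± 0.2, adjusted p = 0.0017) and Sesn2 (0.39 ± 0.054, adjusted p = 0.0029) rose with GSK126, whereas Mdm2, a direct p53 target, did not pass the test for GSK126 (-0.08 ± 0.043) or for BMP2 (0.13 ± 0.046) on day 6. Sesn1 fell with GSK126 (-0.34 ± 0.058) and with BMP2 (-1.2 ± 0.059), as did Fas (-0.36 ± 0.064 and -0.63 ± 0.066).

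Genes of the integrated stress response were higher with GSK126. All 8 on that list, which includes Sesn2, rose from day 1 to day 6 and with GSK126 on day 6, and 5 of 8 rose with BMP2 on day 6. Of all genes 40.5%, 14.3% and 13.3% rose. Trib3 rose by 2.52 ± 0.14 with GSK126 (adjusted p = 6.1e-05) and by 0.94 ± 0.14 with BMP2 (adjusted p = 0.0038). The summed level of the list was 890 to 1140 CPM in day 6 libraries without GSK126 and 1620 to 1810 CPM with it. In the same libraries Cdkn1a measured 264 to 501 CPM without GSK126 and 480 to 542 CPM with it. The part of the stress response in the Cdkn1a result was not tested. Osteoblast lineage genes also moved. With GSK126 on day 6, 5 of 10 rose and 1 fell, beside 14.3% and 14% of all genes. With BMP2, 9 rose and 1 fell, beside 13.3% and 15.5%. The summed level of the osteoblast lineage genes was 69200 to 162000 CPM on day 6 without GSK126 and 84600 to 178000 CPM with it. Its part in the results for the CDK inhibitors was not tested.

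Of 7 genes listed under p27 protein turnover, 3 were called for each agent on day 6, beside 28.3% and 28.7% of all genes. Skp2, the ubiquitin ligase subunit that recognises p27, fell with GSK126 on day 6 (-0.57 ± 0.055, adjusted p = 0.00068) and rose with BMP2 (0.53 ± 0.06, adjusted p = 0.0012). Its cofactor Cks1b fell with both (-0.56 ± 0.051 and -0.43 ± 0.053). Fbxw7, also on this list, rose with both (0.46 ± 0.11 and 0.61 ± 0.12), and the other 4 were not called for either agent. Whether these changes bear on p27 protein was not tested.

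Of 13 Polycomb regulators of the Ink4 locus, 1 rose and 2 fell with GSK126 on day 6, a share no larger than that of all genes (28.3%). Bmi1, a subunit of Polycomb repressive complex 1, rose by 0.17 ± 0.046 (adjusted p = 0.035), while Ezh2 (-0.24 ± 0.064, adjusted p = 0.032) and Eed (-0.2 ± 0.053, adjusted p = 0.032) fell. Ezh2, the target of the inhibitor and an E2F-responsive gene, also fell from day 1 to day 6 (-1.12 ± 0.045) and with BMP2 on day 6 (-0.27 ± 0.067, adjusted p = 0.026). Inhibition of the enzyme itself is not read by RNA.

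Across the 12 libraries, after each day's mean was removed, log2 CPM of Cdkn1a ran against that of Cdkn2c (Pearson r = -0.89) and Cdkn1b (r = -0.86). Genes most like Cdkn1a among 9370 candidates were Herpud1 (r = 0.986), an endoplasmic reticulum stress gene, Pth1r (0.984), the parathyroid hormone receptor, and Tbrg1 (0.983). Those most like Cdkn2c were Obfc2a (0.993), Trerf1 (0.991) and Akap12 (0.99), and those most like Cdkn1b were Plcb4 (0.981), Ablim1 (0.971) and Iqsec1 (0.958). Cdkn2d ran closest to Ptms (0.971), and Rbl1 to Ncapd3 (0.974), a condensin subunit, Ccng2 (0.965) and Dsn1 (0.962). Rb1 (Dixdc1, 0.959) and Rbl2 (Lgmn, 0.944) had looser matches. These correlations describe libraries that share the treatments, with most of the spread on day 6.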

How the data were processed

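The authors deposited a single table with counts and RPKM per gene for 12 libraries. The reads were handled on mm10 with bcl2fastq, TopHat2 2.0.6 and HTSeq, per the submitters' processing notes; annotation release and strand setting were not given in the sources used here. The deposited counts are even for every gene, as if both mates of a pair were counted, so counting limits used read pairs. RPKM values are the authors' counts per gene model length and library total. Rows with a shared name (69) were kept apart by position.

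Genes at 1 CPM or more in 2 or more libraries were normalised by TMM and tested with edgeR 4.0.16 (R 4.3.3). The fit had day and, within day, GSK126 and both BMP2 doses (8 coefficients), leaving 4 residual degrees of freedom; the interaction model had day by GSK126 by any BMP2. P-values cover the spread left between these libraries, which may be technical. The genes, lists and tests were chosen with earlier results of these data known. From each list, up to 4 called genes of largest change on day 6 could be named, and genes behind counts of 5 or fewer; Mdm2 and E2f1 were named after their values were seen. Likeness ranked genes with mean CPM of at least 5 by correlation of log2 CPM (prior count 2). Alternatives were DESeq2 1.42.0, library size scaling, no filter or 5 CPM, limma-voom 3.58.1 (also with a weight per day), each day alone and 1 library fewer; halved counts were added after seeing the data. The scripts were tested on simulated counts.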

Additional observations from a re-analysis of the deposited data

Results flagged for a closer look

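In 4 cases the effect of an agent differed between day 1 and day 6 by the test of the difference itself (edgeR, log2 scale, 1 library per condition). Such differences were called in 10.5% of all genes for GSK126 and in 9.14% for BMP2. The GSK126 effect was more negative on day 6 for Cdkn2d by -0.87 (adjusted p = 0.0019) and for Cdkn1b by -0.34 (adjusted p = 0.039). The BMP2 effect was more negative on day 6 for Cdkn2c by -0.93 (adjusted p = 0.044) and for Cdkn2d by -0.43 (adjusted p = 0.033). Any 1 day 1 library, when left out, ended each of these calls except that of GSK126 for Cdkn2d. Cdkn2d is the one gene with a difference for both agents, but that for BMP2 was not called with limma-voom and a weight per day (adjusted p = 0.057).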

How the results depend on the processing

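Over the 7 tested genes and 8 comparisons, 529 of the values with 1 library left out kept direction and call, 70 lost the call, 23 gained one and 22 changed sign; under the other settings these were 381, 19, 16 and 4. The cause of these changes was not tested. Of the 7 genes, the number called with GSK126 on day 1 was 0, and 1 with a weight per day or with day 1 alone. With GSK126 on day 6 it was 4, but 1 with day 6 alone and 2 to 6 with 1 library left out. For the day difference of GSK126 it was 2, but 1 with library size scaling or no filter and 1 to 4 with 1 library left out. With BMP2 on day 1 it was 1, but 3 with a weight per day, 4 with day 1 alone and 0 to 2 with 1 library left out. With BMP2 on day 6 it was 5, but 3 with library size scaling or a weight per day, 1 with day 6 alone and 2 to 6 with 1 library left out. For the day difference of BMP2 it was 2, but 1 with library size scaling and 0 to 4 with 1 library left out. For the interaction it was 0, but 1 with DESeq2 and 0 to 1 with 1 library left out (1 without the day 6 library with 10 ng/ml BMP2 alone). Values near 0 changed sign: BMP2 on day 1 for Cdkn2d (-0.042 with library size scaling, -0.006 at 5 CPM, -0.043 to 0.046 with 1 library left out) and Rbl2 (0.002 with no filter, -0.065 to 0.039), and the day difference of BMP2 for Rbl1 (-0.032 with library size scaling, -0.221 to 0.388). With 1 library left out, GSK126 values for Rbl2 ran from -0.027 to 0.045 on day 1, from -0.025 to 0.162 on day 6 and from -0.032 to 0.153 for the day difference, BMP2 on day 6 for Rbl1 from -0.306 to 0.306, and the BMP2 day difference for Cdkn1a from -0.109 to 0.565.

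Counts over all genes moved by over 1.5 times in some settings. With GSK126 on day 1 they were 0, but 6 by DESeq2, 586 with a weight per day and 2030 with day 1 alone; on day 6 they were 3415, but 1995 with a weight per day and 956 with day 6 alone. With BMP2 on day 1 they were 441, but 912, 4052 and 4697 in the order DESeq2, weight per day, day 1 alone; on day 6 they were 3463, but 2109 with a weight per day and 1038 with day 6 alone. The interaction went from 0 to 190 by DESeq2 and 4 with no filter. Library size scaling moved the share of higher calls from 51.9% to 33% between the days, from 50.5% to 60.9% for GSK126 on day 6, from 46.2% to 19.2% for BMP2 on day 6 and from 41.7% to 25.4% for its day difference. With 1 library left out, these counts ran from 1825 to 4252 for GSK126 on day 6 (the lowest without either day 6 library with 10 ng/ml BMP2), from 342 to 2622 for its day difference, from 1 to 1487 for BMP2 on day 1, from 104 to 2505 for its day difference and from 0 to 156 for the interaction. No paired analysis was possible because each condition had 1 library, so no replicate number is shared; libraries were matched on the other agent within the fit. Depth limits only Cdkn1c, Cdkn2a and Cdkn2b, at or below 6 read pairs in each library.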
